A study of Mus musculus with 18 samples.

Results

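Etnppl, Il33, Ctxn3 and Cbx7 are 4 of the 22783 genes in a table of cerebellar RNA levels. They were chosen by their FPKM, an RNA level scaled to transcript length and library size, at weeks 5 and 12, because it was higher at week 12 in both genotypes studied, ATXN1[30Q]D776/Cck-/- and Cck-/-. The values at weeks 5 and 12 therefore chose the genes, and for them the difference between those ages is given only as a description, with no test. The questions left are how the genes stood in ATXN1[30Q]D776/Cck-/- against Cck-/- mice at each age, and what happened to them after week 12.

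The ATXN1[30Q]D776/Cck-/- mice, called transgenic from here on, carry a human ATXN1 transgene that is driven by a Purkinje cell promoter and altered at the residue its name gives; ataxin-1 is the protein of spinocerebellar ataxia type 1. They also carry the Cck-/- knockout of the gene that encodes cholecystokinin, a neuropeptide. The Cck-/- mice share that knockout and have no ATXN1 transgene. Mice of both genotypes are of the FVB strain, and RNA was taken from dissected cerebellum at 5, 12 and 28 weeks after birth. There were 18 libraries in 6 groups of 3. Nothing in the labels ties each library to an animal of its own, so p-values measure only the spread between libraries. Because whole cerebella were sequenced, fewer cells of a type and less RNA per cell cannot be told apart.

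The 4 genes have unlike jobs. Etnppl encodes ethanolamine-phosphate phospho-lyase, which breaks down phosphoethanolamine, an intermediate of membrane phospholipid synthesis, and in the brain it is known as an astrocyte gene. Il33 encodes interleukin-33, a cytokine of the IL-1 family that is held in the nucleus and acts, once released, through the receptor subunits encoded by Il1rl1 and Il1rap. In the mouse brain its main sources are oligodendrocytes and astrocytes. Ctxn3 encodes cortexin 3, a small membrane protein of neurons whose function is little known. Cbx7 encodes a chromobox protein that reads histone H3 methylated by Polycomb repressive complex 2 and brings Polycomb repressive complex 1 to chromatin, where genes are held silent.

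In mm10 coordinates Etnppl lies on the plus strand at chr3:130617448-130635750, Il33 on the plus strand at chr19:29925114-29960715 and Cbx7 on the minus strand at chr15:79915807-79932646. All are protein-coding, as is Ctxn3. Cbx7 shares 100 bases with Apobec3, which runs the other way. Whether the authors' quantification used strand is not given in the sources used here, so reads of such partners cannot be told apart. Apobec3 was low, with group means of 0.682 to 1.25 FPKM. FPKM are fragments scaled to transcript length, so levels can be compared between genes. They are also scaled to library size, by a normalization that the sources used here do not state.

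Promoters of 3 of the 4 genes were found in RefSeq sequence of build GRCm38.p6, from 250 bases before the start site to 50 bases from it on, written along the strand of the gene. They are shown because the genes share a direction of change between weeks 5 and 12, and a reader can see how different the DNA at their starts is. Capitals mark the 6 letters TATAAA or GGGCGG where either strand held them. The Etnppl start lies at chr3:130617198-130617497, the Il33 starts at chr19:29924863-29925162 and chr19:29945540-29945839, and the Cbx7 start at chr15:79932597-79932896 on the minus strand.
Etnppl, first start site: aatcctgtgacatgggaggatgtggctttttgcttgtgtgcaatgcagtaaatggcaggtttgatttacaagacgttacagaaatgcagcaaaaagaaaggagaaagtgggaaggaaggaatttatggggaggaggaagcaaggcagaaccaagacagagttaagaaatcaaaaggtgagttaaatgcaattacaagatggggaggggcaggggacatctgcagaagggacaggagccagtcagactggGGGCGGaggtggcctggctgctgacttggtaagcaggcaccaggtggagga
Il33, first start site: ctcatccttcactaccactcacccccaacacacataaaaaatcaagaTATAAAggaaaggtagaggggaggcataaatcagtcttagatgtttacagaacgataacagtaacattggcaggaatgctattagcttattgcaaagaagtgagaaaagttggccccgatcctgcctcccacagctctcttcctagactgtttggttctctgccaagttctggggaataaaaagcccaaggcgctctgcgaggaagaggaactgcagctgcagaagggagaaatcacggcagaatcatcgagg
Il33, second start site: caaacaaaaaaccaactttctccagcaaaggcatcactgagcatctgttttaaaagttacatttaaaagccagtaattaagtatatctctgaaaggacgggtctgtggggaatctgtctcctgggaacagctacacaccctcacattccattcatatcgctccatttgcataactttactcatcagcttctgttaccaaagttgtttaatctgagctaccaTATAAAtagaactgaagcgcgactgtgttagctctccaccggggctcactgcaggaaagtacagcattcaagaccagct
Cbx7: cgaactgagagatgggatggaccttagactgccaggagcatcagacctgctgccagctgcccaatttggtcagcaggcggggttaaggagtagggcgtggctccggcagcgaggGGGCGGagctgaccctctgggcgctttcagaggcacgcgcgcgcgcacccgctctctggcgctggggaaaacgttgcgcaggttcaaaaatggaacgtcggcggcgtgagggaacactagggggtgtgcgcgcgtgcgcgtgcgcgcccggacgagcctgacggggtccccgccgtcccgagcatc

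The Cbx7 promoter held 33 CG dinucleotides, more than 91.4% of the 32851 promoters in the table, and 67.3% of its bases were G or C. The Etnppl promoter held 2 CG dinucleotides and the Il33 promoters 6 and 5, against a median of 7. TATAAA, which 13.6% of all promoters held on either strand, begins 203 bases before the first Il33 start site and 29 bases before the second. GGGCGG, found in 35.7% of promoters, begins 136 bases before the Cbx7 start site and 1 base before the first Etnppl start site. Neither CACGTG, TGACGTCA, the nuclear factor I palindrome nor the glucocorticoid response element palindrome was in these windows or in that of a second Etnppl start site. They were in 7.15%, 1.79%, 0.0365% and 0.00913% of all promoters, in that order.

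Some libraries stood apart from the rest. In 3 transgenic libraries, replicates 1 and 2 of week 5 and replicate 3 of week 28, the mean level of 12 choroid plexus genes was 1.48 to 1.73 (log2 of FPKM + 1), against 3.05 to 4.68 in the other libraries. In 3 transgenic libraries, replicate 1 of week 5, replicate 2 of week 12 and replicate 1 of week 28, Xist and the summed Y-linked transcripts were both at 1 FPKM or more. Just under that limit were transgenic replicate 3 of week 28, with 91.4 FPKM of Xist and 0.728 FPKM of Y-linked transcripts, and Cck-/- replicate 2 of week 5, with 0.882 and 71.5 FPKM. Cck RNA was still measured, at 81.0 to 112 FPKM in transgenic and 17.1 to 25.8 FPKM in Cck-/- libraries of week 5, and its part in the differences at that age was not tested. None of the 14 granule neuron and 14 Purkinje cell markers was at 0 in any library; both are neurons that define the cerebellum. Results are given with and without these libraries where a call depends on them.

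In transgenic cerebella Etnppl had 4.62, 6.73 and 5.21 FPKM at week 5, 23.3, 35.4 and 21.5 FPKM at week 12 and 48.4, 68.1 and 38.0 FPKM at week 28. In Cck-/- cerebella it had 8.55, 7.35 and 6.92 FPKM at week 5, 27.0, 25.5 and 27.4 FPKM at week 12 and 43.9, 30.1 and 23.9 FPKM at week 28. At week 5 every transgenic library was below every Cck-/- library, at week 12 the groups overlapped, and at week 28 the transgenic libraries were mostly the higher ones, with replicate 1 of Cck-/- among them. The order of group means was transgenic week 5, Cck-/- week 5, Cck-/- week 12, transgenic week 12, Cck-/- week 28 and transgenic week 28, and each neighbouring pair from Cck-/- week 12 upward overlapped.

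Il33 had 7.04, 7.82 and 7.61 FPKM in transgenic cerebella at week 5, 19.4, 22.7 and 15.6 FPKM at week 12 and 35.3, 37.2 and 28.3 FPKM at week 28. In Cck-/- cerebella it had 3.94, 3.69 and 4.49 FPKM at week 5, 15.9, 12.9 and 11.8 FPKM at week 12 and 27.3, 21.5 and 19.8 FPKM at week 28. Within each genotype the ages did not overlap. The transgenic libraries were above all Cck-/- libraries of the same age at weeks 5 and 28, and at week 12 the lowest transgenic library was just below the highest Cck-/- library. In the order of group means each age had Cck-/- first and the transgenic group next, and the neighbours that overlapped were both groups of week 12, and transgenic week 12 with Cck-/- week 28.

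Ctxn3 lies on the plus strand at chr18:57468486-57478134, and all its 9649 bases are shared with 4930511M06Rik, an antisense RNA that had group means of 0.279 to 0.459 FPKM. Ctxn3 had 10.5, 8.44 and 10.2 FPKM in transgenic cerebella at week 5, 22.8, 29.5 and 31.8 FPKM at week 12 and 12.3, 11.1 and 18.9 FPKM at week 28. In Cck-/- cerebella it had 19.3, 22.4 and 22.0 FPKM at week 5, 33.4, 32.8 and 34.2 FPKM at week 12 and 44.2, 36.0 and 34.2 FPKM at week 28. The transgenic libraries were below every Cck-/- library of the same age at all 3 ages, and in transgenic mice week 28 lay between weeks 5 and 12. From low to high the group means ran transgenic week 5, transgenic week 28, Cck-/- week 5, transgenic week 12, Cck-/- week 12 and Cck-/- week 28, and no neighbouring pair overlapped, although the closest libraries nearly touched.

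Cbx7 had 27.6, 26.9 and 25.5 FPKM in transgenic cerebella at week 5, 35.6, 37.0 and 37.4 FPKM at week 12 and 40.5, 37.6 and 40.2 FPKM at week 28. In Cck-/- cerebella it had 19.5, 19.5 and 18.8 FPKM at week 5, 35.9, 37.8 and 37.5 FPKM at week 12 and 35.9, 42.9 and 42.1 FPKM at week 28. At week 5 the genotypes were apart with the transgenic libraries higher, and at weeks 12 and 28 they overlapped. Only the 2 groups of week 5 were apart from their neighbours in the order of means: transgenic week 12, Cck-/- week 12, transgenic week 28 and Cck-/- week 28 each overlapped the next.

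**Figure D1:**
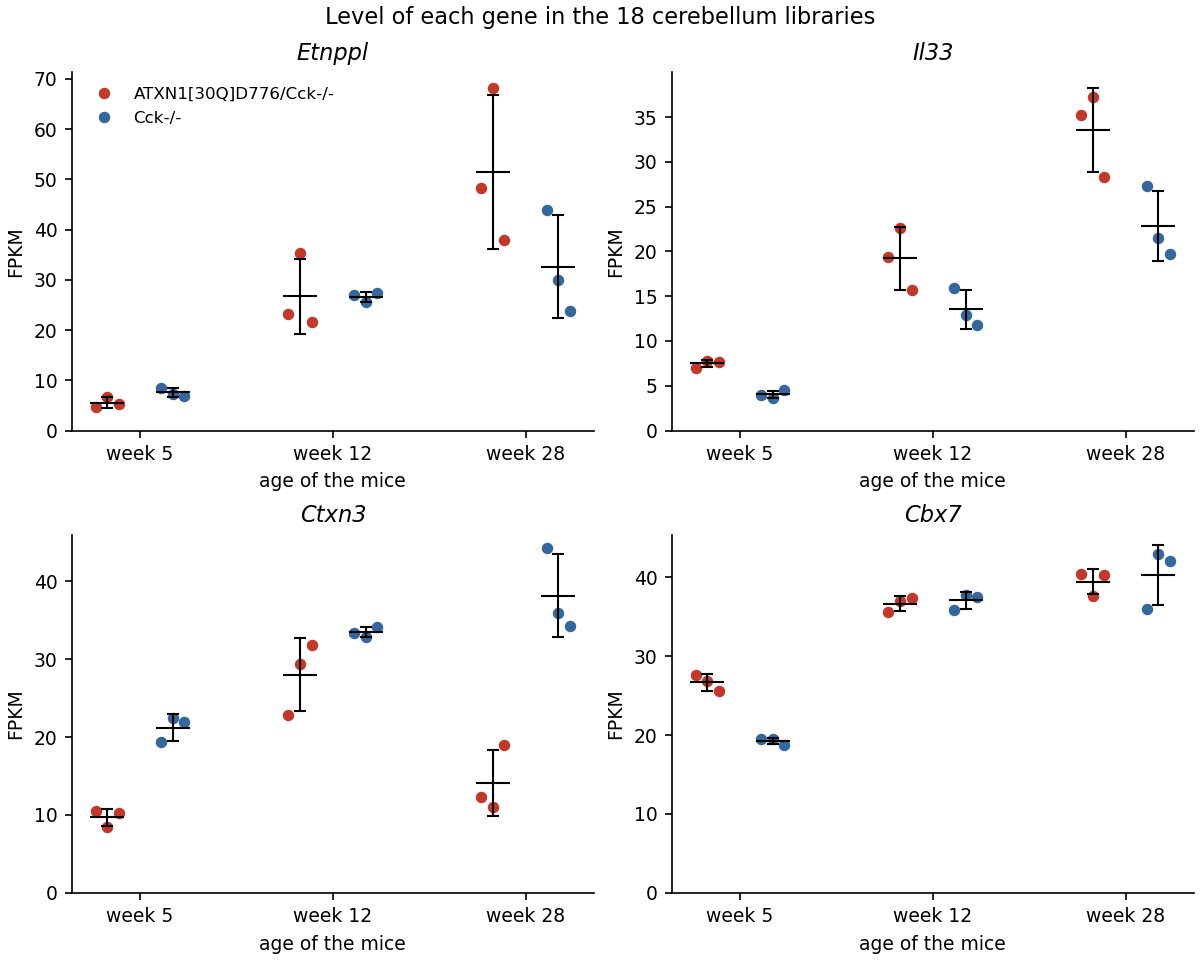
FPKM of Etnppl, Il33, Ctxn3 and Cbx7 (vertical axes) in each of the 18 libraries by age (horizontal axes), red for ATXN1[30Q]D776/Cck-/- and blue for Cck-/-; lines are the mean and bars the SD of 3 libraries. The Il33 libraries of each age lie above those of the age before in both genotypes, the Etnppl libraries of weeks 12 and 28 overlap in Cck-/-, and Ctxn3 averages 14.1 FPKM in transgenic and 38.2 FPKM in Cck-/- libraries at week 28.

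Between weeks 5 and 12, the interval that chose the genes, mean Etnppl was 4.84 times as high at week 12 as at week 5 in transgenic cerebella and 3.50 times as high in Cck-/- cerebella. The log2 difference of FPKM + 1 was 2.07 in transgenic and 1.69 in Cck-/- mice for Etnppl (SE 0.23 each), 1.24 and 1.52 for Il33 (SE 0.14 each), 1.43 and 0.64 for Ctxn3 (SE 0.16 each), and 0.45 and 0.91 for Cbx7 (SE 0.056 each), in the same order of genotypes. The smaller of both differences ranked Etnppl 1, Il33 2, Ctxn3 11 and Cbx7 39 among the 13487 genes tested. In the limma fit 0.593% of tested genes were called higher in transgenic and 5.29% in Cck-/- mice over this interval, and 28 genes, 0.208%, in both. These shares are background, since the same interval chose the 4 genes. Next after Il33 among those 28, by the smaller of both differences, was H2-K1, a class I histocompatibility gene, at 1.00 in transgenic and 0.83 in Cck-/- mice, and Neat1, a long noncoding RNA, had 0.55 and 0.94.

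**Figure D2:**
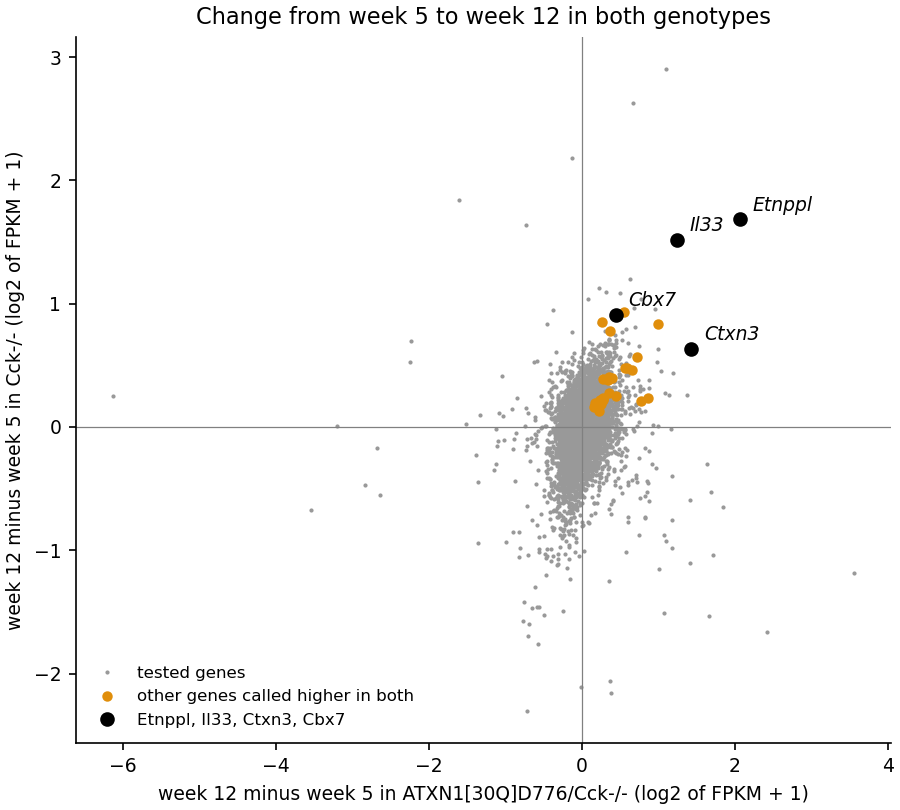
Difference between week 12 and week 5 for each tested gene, as log2 of FPKM + 1, in ATXN1[30Q]D776/Cck-/- (horizontal axis) and in Cck-/- (vertical axis); black points are the 4 genes, orange points the other 24 genes called higher in both, grey points all genes. Etnppl at 2.07 and 1.69 and Il33 at 1.24 and 1.52 lie farthest out along the diagonal, Ctxn3 leans to the transgenic side and Cbx7 to the Cck-/- side.

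For Ctxn3 and Etnppl the larger of both values was that of the transgenic mice, and for Il33 and Cbx7 that of the Cck-/- mice. The transgenic minus Cck-/- value was 0.79 (SE 0.23) for Ctxn3, 0.38 (SE 0.32) for Etnppl, -0.28 (SE 0.20) for Il33 and -0.47 (SE 0.080) for Cbx7, and these too are given as descriptions. Counting from week 5 to week 28, Etnppl was higher by 2.98 in transgenic and 1.93 in Cck-/- mice, Il33 by 2.02 and 2.23, Ctxn3 by 0.46 and 0.81, and Cbx7 by 0.55 and 1.03. Those spans share the low week 5 libraries with the choice of the genes.

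At week 5 the transgenic and Cck-/- cerebella differed in 3 of the 4 genes, 2 higher and 1 lower. This contrast uses libraries that also entered the choice, but compares genotypes and not ages, and 7.67% of tested genes were called in it, 3.3% higher and 4.37% lower. Il33 averaged 7.49 ± 0.404 FPKM in transgenic and 4.04 ± 0.410 FPKM in Cck-/- mice (SD, n = 3 each), a log2 difference of 0.75 (SE 0.14, limma adjusted p = 0.00497). Cbx7 averaged 26.7 ± 1.03 FPKM in transgenic and 19.2 ± 0.385 FPKM in Cck-/- mice, a log2 difference of 0.45 (SE 0.056, limma adjusted p = 0.000232). Ctxn3 averaged 9.72 ± 1.11 FPKM in transgenic and 21.2 ± 1.68 FPKM in Cck-/- mice, a log2 difference of -1.06 (SE 0.16, limma adjusted p = 0.00105). Etnppl averaged 5.52 ± 1.09 FPKM in transgenic and 7.60 ± 0.844 FPKM in Cck-/- mice, and its difference of -0.41 (SE 0.23) did not pass the test (limma adjusted p = 0.312).

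With the 3 libraries of low choroid plexus level left out, a lone transgenic library stands for week 5 and is assumed to vary like the others. In that fit Il33 was no longer called at week 5 (0.78, limma adjusted p = 0.0716), while Ctxn3 (-0.99, adjusted p = 0.00877) and Cbx7 (0.39, adjusted p = 0.034) were. Without the libraries that held both Xist and Y-linked transcripts Il33 was called (0.79, limma adjusted p = 0.0147). Of 20 myelin and mature oligodendrocyte markers, 9 were called lower and 0 higher in transgenic mice at this age, against 4.37% and 3.3% of all tested genes, with a summed level of 4884 to 5022 FPKM in transgenic and 5948 to 7159 FPKM in Cck-/- libraries. Their part in the Il33 difference, which runs the other way, was not tested.

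At week 12 none of the 4 genes was called between genotypes in the limma fit, in which 1.36% of tested genes were called and 1623 genes had an unadjusted p under 0.05. These libraries also entered the choice of the genes, which compared ages and not genotypes. Il33 came closest, at 19.2 ± 3.51 FPKM in transgenic and 13.5 ± 2.16 FPKM in Cck-/- mice (log2 difference 0.47, SE 0.14, limma adjusted p = 0.138). Its 95% interval, which is not adjusted for the number of genes, was 0.17 to 0.78. Ctxn3 had 28.0 ± 4.69 FPKM in transgenic and 33.5 ± 0.674 FPKM in Cck-/- mice (-0.26, limma adjusted p = 0.568), with a 95% interval of -0.60 to 0.078. For Cbx7 the 95% interval of the log2 difference was narrow, -0.14 to 0.11, around -0.015 (limma adjusted p = 0.965), and for Etnppl it was wide, -0.51 to 0.46, around -0.027 (limma adjusted p = 0.989).

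The rule that chose the genes used no week 28 libraries, but earlier results of these data were known when they were chosen. At week 28 Ctxn3 was lower and Il33 higher in transgenic than in Cck-/- cerebella. In this contrast 10.7% of tested genes were called, 4.54% higher and 6.13% lower. Ctxn3 averaged 14.1 ± 4.23 FPKM in transgenic and 38.2 ± 5.34 FPKM in Cck-/- mice (SD, n = 3 each), a ratio of 0.369 and a log2 difference of -1.40 (SE 0.16, limma adjusted p = 4.41e-05) that ranked 33 from the lowest of the 13487 tested genes. Il33 averaged 33.6 ± 4.68 FPKM in transgenic and 22.9 ± 3.94 FPKM in Cck-/- mice, a log2 difference of 0.54 (SE 0.14, limma adjusted p = 0.0254). Cbx7 averaged 39.4 ± 1.59 FPKM in transgenic and 40.3 ± 3.82 FPKM in Cck-/- mice, and the 95% interval of its log2 difference was -0.15 to 0.092. Etnppl averaged 51.5 ± 15.3 FPKM in transgenic and 32.6 ± 10.3 FPKM in Cck-/- mice, a log2 difference of 0.65 (SE 0.23) that did not pass (limma adjusted p = 0.0833).

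The call of Il33 at week 28 was lost on leaving out any of 4 of the 6 libraries: transgenic replicate 1 (limma adjusted p = 0.0993), transgenic replicate 2 (0.129), Cck-/- replicate 2 (0.0934) or Cck-/- replicate 3 (0.0976), with differences of 0.45 to 0.50. Without the libraries holding both Xist and Y-linked transcripts it was 0.50 (adjusted p = 0.1), and without the libraries low in choroid plexus genes 0.65 (adjusted p = 0.0197). Fitted on the 2 groups of week 28 alone it was 0.54 (adjusted p = 0.116). Etnppl, in turn, passed without transgenic replicate 3 (0.84, limma adjusted p = 0.028) and without Cck-/- replicate 1 (0.88, adjusted p = 0.0184). Leaving out the libraries low in choroid plexus genes removes that same transgenic replicate 3 from week 28, and the difference was again 0.84. Ctxn3 was called without any 1 library, with differences of -1.62 to -1.26, and without either set of libraries that stood apart.

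**Figure D3:**
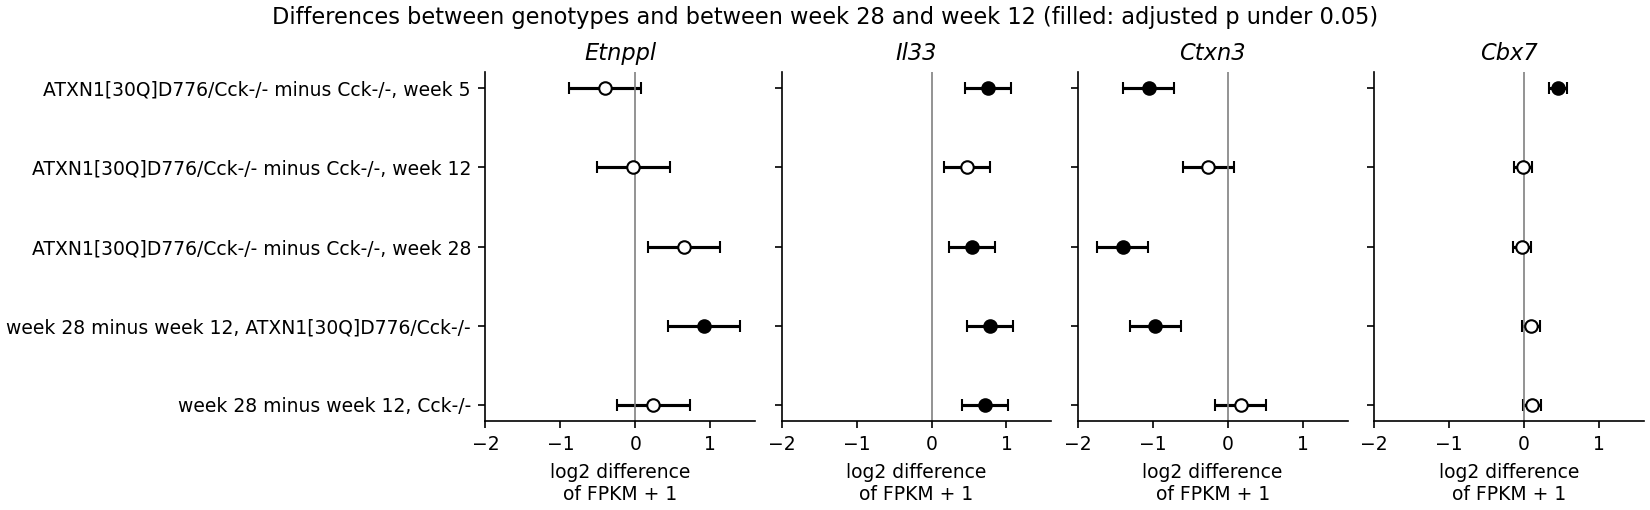
Log2 difference of FPKM + 1 (horizontal axes) with its 95% interval for each gene in 5 comparisons; filled points have a limma adjusted p under 0.05 over all 13487 tested genes. The Ctxn3 points lie left of 0 in transgenic against Cck-/- mice at each age, with an interval that includes 0 at week 12. The Il33 intervals lie right of 0 in all 5 comparisons, and the Cbx7 interval leaves out 0 only at week 5.

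After week 12, in transgenic cerebella, Etnppl and Il33 rose further by week 28, Ctxn3 fell, and Cbx7 did not pass the test. The week 12 libraries of this contrast also entered the choice of the genes, and 23.8% of tested genes were called, 10.2% higher and 13.7% lower. Etnppl averaged 51.5 FPKM at week 28 and 26.7 FPKM at week 12, a log2 difference of 0.91 (SE 0.23, limma adjusted p = 0.0104), and Il33 averaged 33.6 FPKM at week 28 and 19.2 FPKM at week 12, a difference of 0.78 (SE 0.14, limma adjusted p = 0.00185). Ctxn3 averaged 14.1 FPKM at week 28 and 28.0 FPKM at week 12, a difference of -0.97 (SE 0.16, limma adjusted p = 0.00108). Cbx7 had 39.4 FPKM at week 28 and 36.7 FPKM at week 12, and all libraries of week 28 were the higher ones, but the difference of 0.10 (SE 0.056) did not pass (limma adjusted p = 0.202). Etnppl was no longer called without transgenic replicate 3 of week 12 (0.78, limma adjusted p = 0.05) or transgenic replicate 2 of week 28 (0.70, adjusted p = 0.0582), or when only these 2 groups were fitted (0.91, adjusted p = 0.0597).

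In Cck-/- cerebella the means of all 4 genes were higher at week 28 than at week 12, but only Il33 was called. The week 12 libraries here also entered the choice of the genes, and the limma fit called 9.65% of tested genes, 4.03% higher. Il33 averaged 22.9 FPKM at week 28 and 13.5 FPKM at week 12, a log2 difference of 0.71 (SE 0.14, limma adjusted p = 0.00694), which did not pass when only these 2 groups were fitted (adjusted p = 0.0748). Etnppl had 32.6 FPKM at week 28 and 26.6 FPKM at week 12 (0.24, SE 0.23, limma adjusted p = 0.534), Ctxn3 had 38.2 FPKM at week 28 and 33.5 FPKM at week 12 (0.17, SE 0.16, limma adjusted p = 0.52) and Cbx7 had 40.3 FPKM at week 28 and 37.1 FPKM at week 12 (0.12, SE 0.056, limma adjusted p = 0.21). Cbx7 passed without Cck-/- replicate 1 of week 28 (0.19, limma adjusted p = 0.015).

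Whether the change after week 12 differed between genotypes was tested as an interaction, in which limma called 0 of 13487 genes (0%), with 1365 at an unadjusted p under 0.05. Its week 12 libraries also entered the choice of the genes. The transgenic minus Cck-/- difference was -1.14 for Ctxn3 (SE 0.23, 95% interval -1.62 to -0.66, limma adjusted p = 0.354) and 0.67 for Etnppl (SE 0.32, 95% interval -0.0089 to 1.36, limma adjusted p = 0.495). It was 0.066 for Il33 (95% interval -0.36 to 0.50, limma adjusted p = 0.924) and -0.013 for Cbx7 (95% interval -0.18 to 0.16, limma adjusted p = 0.965). For Ctxn3 the interaction was called without transgenic replicate 3 of week 28 (-1.36, limma adjusted p = 0.0033). Leaving out the libraries low in choroid plexus genes removes that same library from weeks 12 and 28, and also gave -1.36. With library weights in the fit 2344 genes were called, among them Ctxn3 (-1.24, limma adjusted p = 0.00697) and Etnppl (0.82, adjusted p = 0.037).

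Ctxn3 and the Purkinje cell markers were both lower in transgenic mice at week 28. All 14 of these genes were called lower in transgenic than in Cck-/- cerebella at week 28, with a median log2 difference of -1.36, and all 14 were lower at week 28 than at week 12 in transgenic mice, with a median of -0.92, while 0 of 14 were called between those ages in Cck-/- mice. Over all tested genes 6.13% were called lower in the first contrast and 13.7% in the second, and 9.65% were called in the third. The summed level of the 14 markers was 1216 to 2300 FPKM in transgenic and 3569 to 3813 FPKM in Cck-/- libraries of week 28. The transgenic library of that age with the most Ctxn3, replicate 3, also had the highest sum. Replicate 3 was also the week 28 library low in choroid plexus genes, so its make-up may differ in other ways. At week 12 the sums were 2860 to 3147 FPKM in transgenic and 3818 to 4073 FPKM in Cck-/- libraries. At week 5 they were 2936 to 3333 FPKM in transgenic and 3630 to 3845 FPKM in Cck-/- libraries. At week 12, where Ctxn3 did not pass, 5 of the 14 were called lower, and 1.36% of all tested genes were called in either direction. At week 5, where Ctxn3 was lower, 4 of the 14 were called lower, against 4.37% of all tested genes. Between weeks 5 and 12 in transgenic mice 0 of the 14 were called, against 1.19% of all tested genes, with a median log2 difference of -0.043, while the difference of Ctxn3 was 1.43. None of the 14 was at 0 in any library, and the part of Purkinje cells in the Ctxn3 differences was not tested.

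Glial marker lists held calls at week 28, where Il33 passed and Etnppl did not. They also did in the later age change of transgenic mice, where both genes rose. Of 20 markers of astrocytes and Bergmann glia, 4 were called higher in transgenic mice at week 28, among them the water channel gene Aqp4 (1.04, limma adjusted p = 0.00012), and 4 lower, among them the glutamate transporter gene Slc1a3 (-0.72, limma adjusted p = 0.00145). Their summed level was 3662 to 3720 FPKM in transgenic and 3347 to 4293 FPKM in Cck-/- libraries. Of 14 microglia markers 7 were called higher and 0 lower, and their sums were 294 to 455 FPKM in transgenic and 192 to 279 FPKM in Cck-/- libraries. Between genotypes at week 28, 4.54% of all tested genes were called higher and 6.13% lower. At week 28 against week 12 in transgenic mice 6 of the 20 astrocyte markers were higher and 2 lower, with a median log2 difference of 0.20. Of the 14 microglia markers 11 were higher and 0 lower, with a median of 0.65. Over all tested genes 10.2% were higher and 13.7% lower. In Cck-/- mice 0 of the 20 astrocyte markers were called between those ages, and 1 of the 14 microglia markers was higher. In that contrast 9.65% of all tested genes were called, 4.03% higher. At week 28 against week 5, a contrast that called 36.9% of tested genes in transgenic and 33.7% in Cck-/- mice, 11 astrocyte markers were higher and 2 lower in transgenic mice and 5 higher and 1 lower in Cck-/- mice. Of the microglia markers 13 were higher in transgenic and 9 in Cck-/- mice, and 0 were lower in either. Myelin and mature oligodendrocyte sums were lower after week 5: in transgenic mice 4884 to 5022 FPKM at week 5, 3207 to 3901 FPKM at week 12 and 3662 to 4199 FPKM at week 28, and in Cck-/- mice 5948 to 7159, 2931 to 3371 and 2697 to 3550 FPKM at the same ages. No marker of these 3 lists was at 0, and their part in the Etnppl and Il33 differences was not tested.

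**Figure D4:**
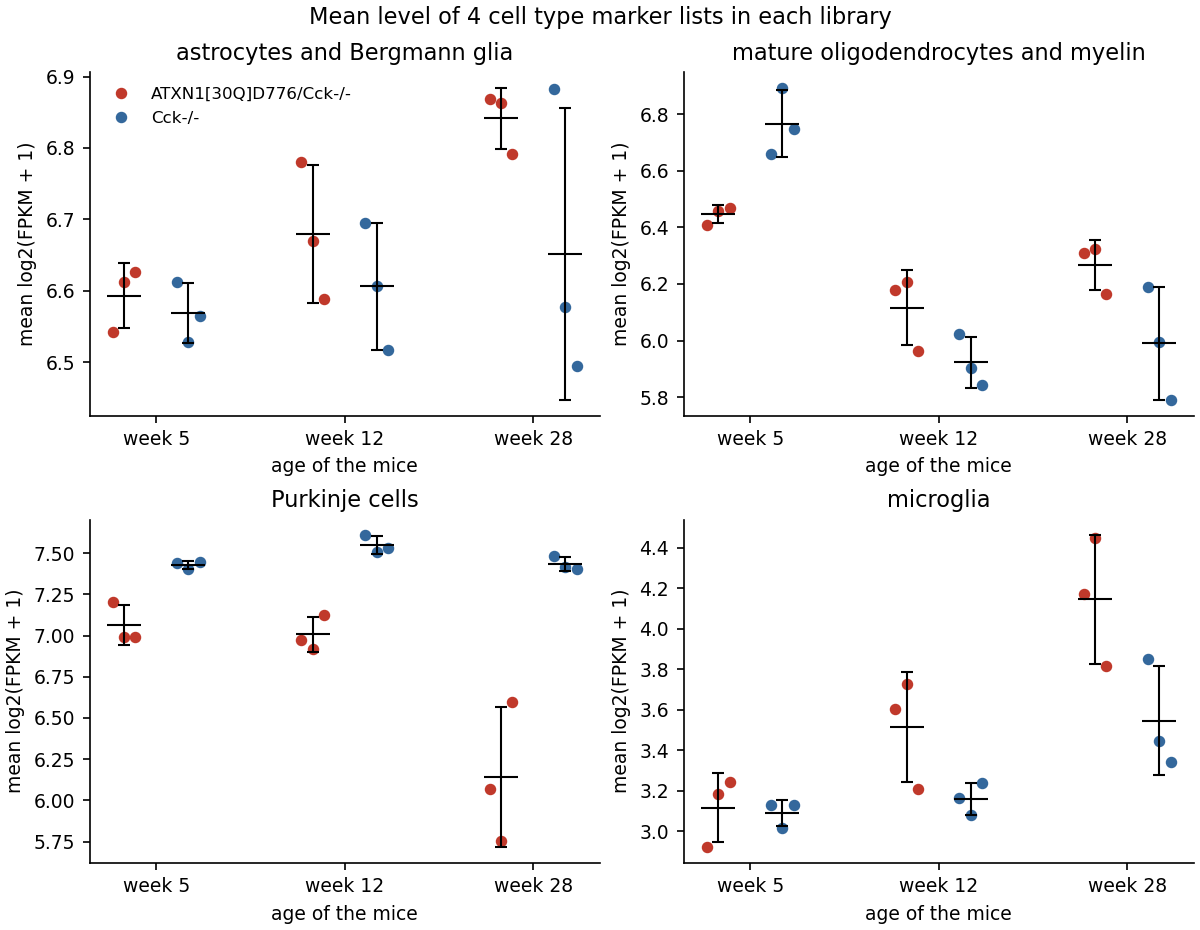
Mean log2 of FPKM + 1 over the markers of 4 cell types (vertical axes, not starting at 0) in each library by age, red for ATXN1[30Q]D776/Cck-/- and blue for Cck-/-; lines are the mean and bars the SD of 3 libraries. The Purkinje cell mean is lower in transgenic libraries at each age and lowest at week 28, and the myelin mean is highest at week 5.

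Around Etnppl stand the ethanolamine and choline phospholipid genes. Of 23 tested besides Etnppl, 1 rose and 1 fell in transgenic against Cck-/- mice at week 5, 1 rose at week 12 and 2 fell at week 28. At these ages 7.67%, 1.36% and 10.7% of all tested genes were called. The list median was -0.018 at week 28 against 0.0046 over all tested genes. The 2 at week 28 were Gdpd1, a lysophospholipase D (-0.31, limma adjusted p = 0.00322), and Ptdss2, a phosphatidylserine synthase that releases ethanolamine (-0.24, limma adjusted p = 0.00537). Etnk2, an ethanolamine kinase, was the gene that rose at week 12 (0.43, limma adjusted p = 0.0253). At week 28 against week 12, 0 rose and 3 fell in transgenic mice, and 0 rose and 1 fell in Cck-/- mice, beside 23.8% and 9.65% of all tested genes called. The 1 in Cck-/- mice was Ept1, the ethanolamine phosphotransferase also named Selenoi (-0.27, limma adjusted p = 0.00999). Phykpl, the lyase most like Etnppl in sequence, had group means of 3.20, 3.76 and 4.39 FPKM at weeks 5, 12 and 28 in transgenic mice and 2.99, 3.32 and 3.92 FPKM in Cck-/- mice. It was not called for genotype or after week 12, and was higher at week 28 than at week 5 in transgenic (0.36, limma adjusted p = 0.00119) and in Cck-/- mice (0.29, adjusted p = 0.00452). The share of all tested genes called between weeks 5 and 28 was 36.9% in transgenic and 33.7% in Cck-/- mice.

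Around Il33, the receptor subunit Il1rl1 was at 0.012 to 0.0932 FPKM in every library, too low to be tested, and its partner Il1rap had group means of 6.90 to 10.3 FPKM with no call for genotype or after week 12. In Cck-/- mice Il1rap was lower at week 12 than at week 5 (-0.46, limma adjusted p = 0.00221, with 11.8% of tested genes called). It was also lower at week 28 than at week 5 (-0.51, limma adjusted p = 0.000283, with 33.7% of tested genes called). In transgenic mice neither difference passed (-0.28, adjusted p = 0.121 and -0.16, adjusted p = 0.151). Of 21 tested genes of IL-33 and IL-1 family signalling besides Il33, 0 rose and 2 fell in transgenic against Cck-/- mice at week 5, none was called at week 12, and 1 rose and 2 fell at week 28, where the list median was 0.085 against 0.0046 over all tested genes. The shares of all tested genes called were 7.67%, 1.36% and 10.7%, so the counts at weeks 5 and 28 lie near the background. Tollip, an inhibitor of this signalling, fell at week 5 (-0.22, limma adjusted p = 0.0206) and at week 28 (-0.41, limma adjusted p = 0.000171). Il1r1, the receptor of interleukin-1, fell at week 28 (-0.27, limma adjusted p = 0.0165), and Rela, a subunit of the transcription factor NF-kappaB, rose (0.18, limma adjusted p = 0.0379). At week 28 against week 12, Irak1, a kinase of the receptor complex, rose (0.13, limma adjusted p = 0.0216) and Tollip fell in transgenic mice, and Rela fell in Cck-/- mice (-0.17, limma adjusted p = 0.0436). Between these ages 23.8% of all tested genes were called in transgenic and 9.65% in Cck-/- mice, so single calls in this list are not particular to it.

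Ctxn2, another cortexin gene, was higher in transgenic than in Cck-/- mice at week 28, where Ctxn3 was lower. At week 5, where Ctxn3 was lower too, Ctxn2 was not called for genotype (0.10, limma adjusted p = 0.662). It had 3.57, 5.03 and 6.95 FPKM at weeks 5, 12 and 28 in transgenic mice and 3.28, 3.99 and 4.81 FPKM in Cck-/- mice. Ctxn2 was higher in transgenic mice at week 28 (0.46, limma adjusted p = 0.0203) and higher at week 28 than at week 12 in transgenic mice (0.40, limma adjusted p = 0.0213). Ctxn2 was also higher at week 28 than at week 5 in both genotypes (0.80, adjusted p = 0.000166 in transgenic and 0.44, adjusted p = 0.00821 in Cck-/- mice). Between those ages 36.9% of all tested genes were called in transgenic and 33.7% in Cck-/- mice. Ctxn1 had group means of 4.15 to 7.12 FPKM with a wide spread and was not called in any of the 6 tested comparisons.

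Cbx2, Cbx6 and Cbx8 are chromobox genes that also serve Polycomb repressive complex 1, and they fell in transgenic mice after week 12. Cbx7 did not pass over that interval in either genotype (0.10, limma adjusted p = 0.202 in transgenic and 0.12, adjusted p = 0.21 in Cck-/- mice). The difference between Cbx7 and these genes was not tested. Between weeks 12 and 28 Cbx8 fell in transgenic (-0.49, limma adjusted p = 0.00011) and in Cck-/- mice (-0.38, adjusted p = 0.00106), and Cbx6 fell in transgenic (-0.33, limma adjusted p = 0.00295) and in Cck-/- mice (-0.22, adjusted p = 0.0446). Cbx2 fell in transgenic mice (-0.24, limma adjusted p = 0.0197) and was not called in Cck-/- mice (-0.17, adjusted p = 0.127). Cbx8 was already lower at week 12 than at week 5 in transgenic (-0.24, limma adjusted p = 0.0488) and in Cck-/- mice (-0.21, adjusted p = 0.0271). Cbx6 was called lower over that interval in Cck-/- mice (-0.26, adjusted p = 0.0172) but not in transgenic mice (-0.24, adjusted p = 0.0891), and Cbx2 in neither. That interval called 1.19% of tested genes in transgenic and 11.8% in Cck-/- mice. Cbx6, the highest of these 4 genes, had 78.5, 66.3 and 52.7 FPKM at weeks 5, 12 and 28 in transgenic mice and 87.0, 72.6 and 62.4 FPKM in Cck-/- mice, and at week 28 it was lower in transgenic mice (-0.24, limma adjusted p = 0.0299).

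**Figure D5:**
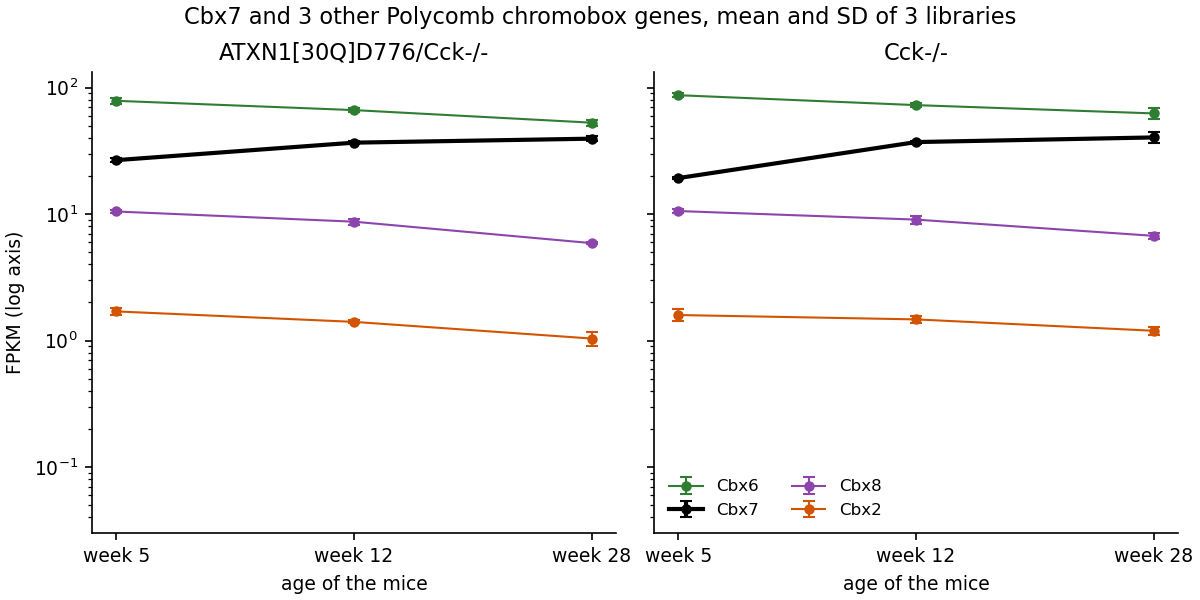
Mean FPKM (log axis) of Cbx7 and of Cbx2, Cbx6 and Cbx8 at weeks 5, 12 and 28 in ATXN1[30Q]D776/Cck-/- (left) and Cck-/- (right); bars are the SD of 3 libraries. The mean of Cbx7, in black, is highest at week 28 in both genotypes, close to that of week 12, and the means of Cbx2, Cbx6 and Cbx8 are lowest then.

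Of the 27 tested genes of Polycomb repressive complex 1 besides Cbx7, 3 rose and 4 fell between weeks 12 and 28 in transgenic mice, and 0 rose and 4 fell in Cck-/- mice, with medians of -0.024 and -0.073 against -0.0031 and -0.00079 over all tested genes, of which 23.8% and 9.65% were called. The count in transgenic mice lies near that background. In transgenic against Cck-/- mice 1 fell at week 5, none was called at week 12, and 1 rose and 2 fell at week 28. At these ages 7.67%, 1.36% and 10.7% of all tested genes were called. The gene that fell at week 5 was Phc2, a Polyhomeotic scaffold subunit (-0.38, limma adjusted p = 0.01), and it fell at week 28 too (-0.27, limma adjusted p = 0.043), while Rybp, a subunit of noncanonical complexes, rose at week 28 (0.28, limma adjusted p = 0.00745). Of 11 tested genes of Polycomb repressive complex 2, which makes the mark that Cbx7 reads, Jarid2 rose in transgenic mice at week 28 (0.23, limma adjusted p = 0.039) and none was called at weeks 5 and 12. Between weeks 12 and 28 Mtf2 rose in transgenic mice (0.28, limma adjusted p = 0.00807), and Aebp2 fell in transgenic (-0.19, limma adjusted p = 0.0249) and in Cck-/- mice (-0.30, adjusted p = 0.00598), as did Suz12 in Cck-/- mice (-0.12, adjusted p = 0.0483). Of 6 other chromobox genes, Cdyl fell between those ages in transgenic mice (-0.17, limma adjusted p = 0.0323).

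Across the 18 libraries Etnppl and Il33 had the most like patterns of any pair of the 4 (Pearson r = 0.912 of log2 FPKM + 1), followed by Il33 and Cbx7 (0.900) and Etnppl and Cbx7 (0.818), while Ctxn3 had r of 0.199 to 0.415 with the others. The libraries share 6 groups, and the age difference that chose the genes enters each r, so the values are descriptions. The named genes most like Etnppl were B2m (r = 0.958), Parp12 (0.955) and H2-K1 (0.949), followed by H2-T23, Psmb9 and Bhlhe41. B2m, the light chain of class I histocompatibility molecules, averaged 93.5, 157 and 205 FPKM at weeks 5, 12 and 28 in transgenic mice and 95.8, 142 and 173 FPKM in Cck-/- mice.

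Most like Il33 was Mcm4 (r = 0.976), a subunit of the DNA replication helicase, followed by Rpl21, Bhlhe41, Prnp, Phyh and Fbxo7 at 0.951 to 0.956; Mcm4 averaged 5.39, 6.13 and 6.74 FPKM at weeks 5, 12 and 28 in transgenic mice and 4.71, 5.80 and 6.29 FPKM in Cck-/- mice. Ctxn3 had weaker partners, led by Cap2 (r = 0.866), Sucla2 (0.856) and Thyn1 (0.853), with Sub1, Pebp1 and Gpr153 behind. Cap2, an actin-binding protein gene, averaged 25.7, 29.9 and 23.0 FPKM at weeks 5, 12 and 28 in transgenic mice and 28.4, 33.2 and 34.3 FPKM in Cck-/- mice. The genes most like Cbx7 were Jade2 (r = 0.970), Xdh (0.956) and Nr3c2 (0.949), followed by Phf1, Dnajc9 and Rit2. Jade2, a subunit of a histone acetyltransferase complex, averaged 8.33, 9.94 and 11.4 FPKM at weeks 5, 12 and 28 in transgenic mice and 5.44, 10.5 and 12.2 FPKM in Cck-/- mice, and Nr3c2, the mineralocorticoid receptor gene, 5.20, 6.47 and 8.05 FPKM in transgenic and 3.22, 6.59 and 8.01 FPKM in Cck-/- mice.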

How the data were processed

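Total RNA from dissected cerebellum was made into Illumina TruSeq libraries, per the labels' protocols. Reads were processed with TopHat2 2.0.11 and Cufflinks 2.2.1 on mm10, per the submitters' processing notes. No source used here gives the annotation, read filters, strand setting or normalization between libraries. The authors deposited FPKM per gene for 18 libraries, with a status per value; 36 further columns of confidence bounds were not used. No counts or depths came with the FPKM values, so the depth is unknown. Sums of FPKM per library were 389248 to 441509.

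Groups follow the labelled genotype and age. Genes that reached 1 FPKM in 3 or more libraries, 13487 with the 4 described here, were tested on log2(FPKM + 1) with limma 3.58.1 in R 4.3.3, with 6 group means, a mean-variance trend and 12 residual degrees of freedom. Fold changes on this scale understate those of low genes. P-values are two-sided, adjusted by Benjamini and Hochberg over all 13487 genes, and called under 0.05. None of the 4 genes had a failed status, against 11 genes in the table. The steps were tested on simulated data.

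The 4 genes and the gene lists were chosen with earlier results of these data known. Named besides them are the 6 most correlated genes of each, without predicted or clone-named symbols, up to 4 called genes of each list per comparison and direction, some summarised, and the nearest family members, of which 1 is not reported here. H2-K1 and Neat1 in the account of weeks 5 to 12, and Aqp4 and Slc1a3, were chosen after their values were seen. Alternatives covered pseudocounts, filters, scaling, the fit, covariates and leaving out libraries; those on the libraries that stood apart, and Xist as a covariate, were added after seeing the data.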

Additional observations from a re-analysis of the deposited data

Results flagged for a closer look

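The libraries of weeks 12 and 28 were apart for Ctxn3 in both genotypes, with week 28 the lower in transgenic and the higher in Cck-/- mice. In transgenic mice all 3 libraries of week 28 were below all 3 of week 12 (means of 14.1 FPKM at week 28 and 28.0 FPKM at week 12), and in Cck-/- mice all 3 of week 28 were above all 3 of week 12 (38.2 FPKM at week 28 and 33.5 FPKM at week 12). The fall in transgenic mice passed the test (-0.97, limma adjusted p = 0.00108), and the difference in Cck-/- mice did not (0.17, 95% interval -0.16 to 0.51, adjusted p = 0.52). The transgenic minus Cck-/- difference of the log2 changes was -1.14 and did not pass the interaction test (limma adjusted p = 0.354). Over the alternatives other than leaving out 1 library, that adjusted p ranged from 0.00574 to 0.878.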

How the results depend on the processing

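The 6 tested comparisons of Etnppl, Il33, Ctxn3 and Cbx7 gave 24 results, which were computed 792 times under other settings: 751 kept direction and call, 18 changed direction, none of them a called result, 12 gained a call and 11 lost one; the cause was not tested. Library weights raised the number of genes called to 3112, 323 and 5835 for genotype at weeks 5, 12 and 28, to 5128 and 4244 for week 28 against week 12 in transgenic and Cck-/- mice, and to 2344 for the interaction. They also gave calls for Etnppl at week 28 (0.785) and in the interaction (0.819), Ctxn3 in the interaction (-1.24), and Cbx7 at week 28 (-0.092) and between weeks 12 and 28 in Cck-/- mice (0.192). Fitting only the compared groups, with fewer libraries to estimate the spread, left 63 and 337 genes for genotype at weeks 12 and 28 and 1368 and 140 for the later age change in transgenic and Cck-/- mice; it lost Il33 at week 28 (0.539) and in Cck-/- mice (0.714) and Etnppl in transgenic mice (0.914). Quantile normalization turned Cbx7 to 0.00422 at week 12, 0.0142 at week 28 and 0.00995 in the interaction, and gave it a call in transgenic mice between weeks 12 and 28 (0.162). With choroid plexus level as a covariate 674 genes were called at week 5; without the libraries low in it 309 were called at week 5 and 102 in the interaction, Il33 at week 5 was 0.776, Etnppl at week 28 0.842 and the Ctxn3 interaction -1.36. Leaving out the 3 libraries where Xist and Y-linked transcripts occurred together, 666, 63 and 668 genes were called for genotype at weeks 5, 12 and 28 and 984 for transgenic week 28 against week 12, and Il33 at week 28 was 0.501. Leaving out each library in turn gave 458 to 1337, 59 to 239 and 618 to 1983 genes for genotype at weeks 5, 12 and 28, 1756 to 3906 and 635 to 1342 for the later age change in transgenic and Cck-/- mice, and 0 to 149 for the interaction. On leaving out each library, the differences ranged, for genotype at week 12, from -0.24 to 0.105 for Etnppl and from -0.0374 to 0.00656 for Cbx7; for genotype at week 28, from 0.428 to 0.877 for Etnppl, 0.445 to 0.669 for Il33 and -0.107 to 0.0179 for Cbx7; for the later age change, from 0.695 to 1.13 for Etnppl in transgenic mice and 0.069 to 0.194 for Cbx7 in Cck-/- mice; and in the interaction, from -0.0677 to 0.195 for Il33, -1.36 to -0.997 for Ctxn3 and -0.0923 to 0.0327 for Cbx7.

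A replicate block changed no call of the 4 genes, and moved no count of calls by over 1.5 times (906, 139 and 1241 genes at weeks 5, 12 and 28). The replicate numbers share no stated source: of 9 same-numbered pairs 4 had correlated deviations over 0.1 (r of -0.16 to 0.435), and 3 correlated best with their own number. With 3 libraries a group and no depths, the count of genes called in the interaction depended on the setting, from 0 to 2344.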

Other observations

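Besides Etnppl, Il33, Ctxn3 and Cbx7, 24 genes were called higher at week 12 than at week 5 in both genotypes, among them Nr3c2, H2-K1, Xdh, B2m, Parp12 and Bhlhe41. After week 12, 10 of the 24 rose and 1 fell in transgenic mice, and 10 rose and 1 fell in Cck-/- mice, where 10.2% and 4.03% of all tested genes were called higher. In transgenic against Cck-/- mice at week 28, 5 were higher and 1 lower, against 4.54% and 6.13% of all tested genes. These genes were chosen by the week 12 libraries that enter both age contrasts, so the counts are descriptions.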
